A study of Danio rerio with 11 samples.

Results

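The 10 genes described here encode 9 enzymes of cholesterol synthesis and the receptor that brings cholesterol into the cell. They are hmgcs1, hmgcra, idi1, fdft1, sqlea, lss, cyp51, msmo1, dhcr7 and ldlra, chosen by their zebrafish symbols and found by Ensembl identifier in each of the 3 tables of results, among 32520 genes listed in any table and 19071 listed in all 3. The tables compare RNA-seq of the gastrointestinal tract (GIT) of adult AB zebrafish in 3 treated groups, each against 28.5-Ctrl. Fish of 18.5-mel (2 samples) were kept at 18.5 °C, reached in weekly steps, with 24 µM melatonin for 10 days, a regime meant to induce a torpor-like state. Fish of 18.5-mel-rad (4 samples) had the same cold and melatonin and also received Caesium 137 gamma radiation on 2 days, while fish of 28.5-rad (3 samples) received the radiation at 28.5 °C without melatonin. The total dose is 32.64 cGy in the sample labels and 32.68 cGy in the protocol text. Fish of 28.5-Ctrl (2 samples) were kept at 28.5 °C without melatonin or radiation.

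Cold and melatonin were applied together in both torpor groups, so their contributions cannot be told apart. Melatonin was dissolved in DMSO and irradiated fish were anaesthetised with tricaine, and the sources used here name no vehicle or anaesthetic for 28.5-Ctrl. Sample codes hold the letter F for both control samples and F or M for the irradiated samples, with no statement of what the letters mean. The 18.5-mel samples alone carry codes of another scheme, without such a letter. Libraries were sequenced at 2 sites, which the labels do not assign to samples, so a site effect on 18.5-mel was not tested.

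Animal cells build cholesterol from acetyl-CoA. The mevalonate steps make the isoprenoid unit, squalene is assembled from it, and lanosterol, the first sterol, is trimmed and reduced to cholesterol. When sterol in the endoplasmic reticulum is low, SCAP carries the transcription factor SREBP2 to the Golgi, where it is cut free to raise the genes of nearly all these enzymes together with that of the LDL receptor, while INSIG proteins hold SCAP back when sterol is high. In the gut, the enterocyte absorbs dietary sterol, makes its own, and exports part of it in lipoproteins, and the liver is the other main site of synthesis.

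Each table gives a gene's mean of normalized counts over the libraries of its fit (the mean expression), a log2 fold change against 28.5-Ctrl with its standard error (SE), and DESeq2 p-values. A gene was called DE at an adjusted p of at most 0.1 and a log2 fold change of 0.58 or more in either direction (1.5-fold). Values per sample were not used here, so every error below is the SE of the fit, and the 95% intervals are 1.96 SE to each side. The labels do not state that each sample is a separate fish, and p-values then measure only the spread between these samples, which may be technical. Mean expression was not corrected for gene length and is not compared between genes. All 3 comparisons share the 2 control samples. In the 18.5-mel table, 111 genes had no read in the irradiated tables, and their 2 most frequent means were 0.34 (37 genes) and 1.2 (23 genes). Each may be what 1 read added to the mean, which would make low genes coarsely measured there, but counts per library were not available to show it. In bulk GIT RNA, fewer cells of a type and less RNA per cell cannot be told apart. Of 16 enterocyte markers, 16 were listed for 18.5-mel, 15 for 18.5-mel-rad and 15 for 28.5-rad, and all but 1 of them (alpi.1) had means of at least 413. RNA of liver (16 markers listed) and exocrine pancreas (15 listed) was also present, so the tissue was not gut alone.

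Under cold and melatonin, 5 of the 10 genes fell and none rose. The sterol-forming steps carried the largest changes, with lss 35.3-fold, msmo1 12.1-fold and cyp51 9.05-fold lower in 18.5-mel than in 28.5-Ctrl. The isomerase gene idi1 was 5.23-fold lower and the receptor gene ldlra 2.73-fold lower. Over all genes tested here, 37.1% were called, 21.3% as raised and 15.8% as lowered. The median log2 fold change of the 10 genes was -1.92, against 0.01 over all tested genes, and 9 of the 10 values were negative. Genes of like abundance were lower as well: the median of the 500 genes nearest in mean expression lay between -0.58 (idi1) and -0.13 (fdft1). Relative to these medians, the median of the 10 was -1.39, and dhcr7 and fdft1 lay above theirs, by 0.33 and 0.23.

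In the mevalonate steps, hmgcs1 encodes the synthase that makes HMG-CoA, and its log2 fold change was -1.43 (SE 1.14, DESeq2 adjusted p = 0.357). For hmgcra, the HMG-CoA reductase that limits the rate of the pathway and is the target of statins, the value was -2.65 with an interval from -5.54 to 0.23 (adjusted p = 0.164). Neither passed the thresholds, although hmgcra had the fourth largest absolute value of the 10. The isomerase idi1, which interconverts the isoprenoid building blocks, did pass them, at -2.39 (SE 0.84, adjusted p = 0.0195). The reductase paralog hmgcrb was lowered too, at -0.92 (SE 0.33, adjusted p = 0.0223), and its interval, from -1.56 to -0.27, lies within that of hmgcra.

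No call was made for the next pair of enzymes. Squalene synthase, encoded by fdft1, commits farnesyl diphosphate to sterols and stood at 0.10 (SE 0.89, adjusted p = 0.95), the only positive value of the 10. Squalene epoxidase, encoded by sqlea, is a second control point of the pathway. Its value of -0.83 had an interval from -3.60 to 1.94, too wide to tell a fall from a rise.

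Calls were made for ring closure and for the trimming of lanosterol. Over the wider lists of synthesis genes in 18.5-mel, the median log2 fold change was -1.77 for squalene and sterol steps (12 of 13 negative). It was -1.52 for mevalonate steps (8 of 9 negative), and the difference between steps was not tested. Lanosterol synthase, lss, had a log2 fold change of -5.14 (SE 1.62, adjusted p = 0.00737), the lowest adjusted p of the 10. Lanosterol demethylase, cyp51, was at -3.18 (SE 1.28, adjusted p = 0.0455), and methylsterol monooxygenase, msmo1, which begins removal of the remaining methyl groups, at -3.60 (SE 1.33, adjusted p = 0.0257). Taken relative to the median of the 500 genes of closest abundance in that table, their log2 fold changes were -4.86 (lss), -2.68 (cyp51) and -3.32 (msmo1). The last enzyme, dhcr7, which reduces the double bond of dehydrocholesterol and so diverts it from vitamin D formation, stood apart from them at -0.24 with an interval from -1.08 to 0.59 (adjusted p = 0.705). That interval excludes a fall as large as the estimates of lss, cyp51 or msmo1, but the difference between these genes was not tested.

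On the uptake side, ldlra encodes the LDL receptor, which takes cholesterol-rich lipoprotein from the blood. It was lowered at -1.45 (SE 0.59), with an adjusted p of 0.0498. Its paralog ldlrb went the other way and rose by 1.64 (SE 0.54, adjusted p = 0.0105). Whether reads of these paralogs were shared by the counting is unknown.

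**Figure D1:**
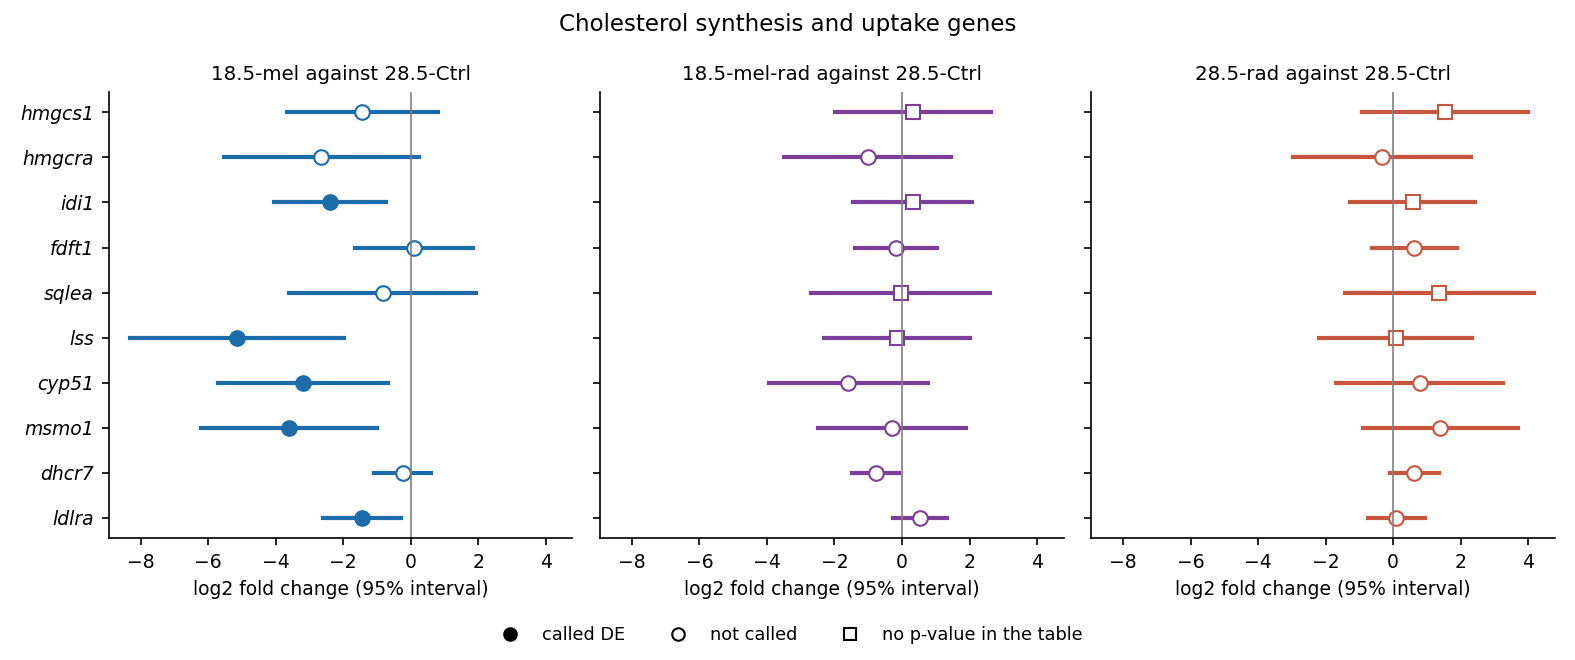
Log2 fold change of the 10 genes against 28.5-Ctrl (x axis) in 18.5-mel, 18.5-mel-rad and 28.5-rad, with genes in pathway order and bars giving 95% intervals. Filled circles mark the 5 genes called DE, all in 18.5-mel, open circles genes not called, and squares the 4 genes without a p-value in both irradiated tables.

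With radiation added to cold and melatonin, no gene of the 10 was called by DESeq2 among the 6 tested, and 1, dhcr7, had an unadjusted p under 0.05. The background in this table was 11.7% of tested genes called, 6.06% raised and 5.68% lowered. The median log2 fold change of the 10 genes was -0.16, against 0.02 over all tested genes, with 7 values below 0.

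The gene dhcr7 was the only one whose interval left out 0, at -0.78 (SE 0.36, adjusted p = 0.161), or 1.71-fold lower in 18.5-mel-rad than in 28.5-Ctrl. The largest absolute value was that of cyp51, -1.60, with an interval from -3.95 to 0.76 (adjusted p = 0.465). After it came hmgcra at -1.02, with an interval from -3.49 to 1.45. The 3 other tested genes were close to 0 or on the positive side: fdft1 at -0.17 (SE 0.62), msmo1 at -0.30 (SE 1.12) and ldlra at 0.53 (SE 0.41).

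No p-value is given for hmgcs1, idi1, sqlea and lss in this table, although each has an estimate. Their log2 fold changes were 0.33 (hmgcs1, SE 1.18), 0.32 (idi1, SE 0.90), -0.04 (sqlea, SE 1.35) and -0.15 (lss, SE 1.1). Their Wald scores, the estimate over its SE, lay between -0.14 and 0.36, so none would have passed a threshold of 1.96.

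The values of both torpor groups differ in size for several genes, and in sign for some. For lss they were -5.14 (SE 1.62) in 18.5-mel and -0.15 (SE 1.1) in 18.5-mel-rad, and for msmo1 -3.60 (SE 1.33) in 18.5-mel and -0.30 (SE 1.12) in 18.5-mel-rad. For ldlra the value was -1.45 (SE 0.59) in 18.5-mel and 0.53 (SE 0.41) in 18.5-mel-rad. For idi1 it was -2.39 (SE 0.84) in 18.5-mel and 0.32 (SE 0.90) in 18.5-mel-rad. The tables were normalized separately and share the control samples, and this difference was not tested.

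Radiation at 28.5 °C left all 10 intervals spanning 0. DESeq2 called 0 of the 5 genes tested, and 0 had an unadjusted p under 0.05. Of all tested genes, 1.94% were called in this table, 1.34% raised and 0.599% lowered, so calls were rare throughout. Here 9 of the 10 values were positive, with a median log2 fold change of 0.63 against 0.01 over all tested genes.

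The highest values belonged to the synthase gene hmgcs1, at 1.53 (SE 1.25), the monooxygenase gene msmo1, at 1.4 (SE 1.17, adjusted p = 0.788), and the epoxidase gene sqlea, at 1.36 (SE 1.43). The most precise estimate was that of dhcr7, at 0.63 with an interval from -0.10 to 1.36 (unadjusted p = 0.0906, adjusted p = 0.599). The only negative value was that of hmgcra, -0.34 (SE 1.34). Intermediate values were 0.78 for cyp51 (SE 1.26), 0.63 for fdft1 (SE 0.65) and 0.58 for idi1 (SE 0.95). Both lss, at 0.07 (SE 1.16), and ldlra, at 0.09 (SE 0.43), were near 0. As in 18.5-mel-rad, hmgcs1, idi1, sqlea and lss have no p-value, and their Wald scores lay between 0.06 and 1.23. The mean expression of fdft1, 55.1, was under 63.1, the lowest mean with an adjusted p in this table, so it could not be called. An interval such as that of sqlea, from -1.43 to 4.16, leaves room for changes as large as those called in 18.5-mel.

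The effect of cold and melatonin among irradiated fish was read from the difference of the changes in 18.5-mel-rad and 28.5-rad. It was tested by a two-sided normal test of the estimates with Benjamini-Hochberg adjustment over 18133 genes. A call here needed an adjusted p of at most 0.1, without a fold threshold. None of the 10 genes was called in this difference, and 1 had an unadjusted p under 0.05. The background was 237 genes, or 1.31%. The difference was negative for 9 of the 10 genes, as it was for 46% of all genes, and the median over the 10 was -1.0 against 0.05 over all genes.

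The smallest p was that of dhcr7, whose change was -0.78 on the log2 scale in 18.5-mel-rad and 0.63 in 28.5-rad. Its difference was -1.41 (SE 0.52, normal test across all genes, unadjusted p = 0.00633, adjusted p = 0.246), with an interval from -2.42 to -0.40. The estimate for cyp51 was larger, -2.38, but its interval reached from -5.79 to 1.04. Differences of msmo1 (-1.70, SE 1.62), sqlea (-1.40, SE 1.96) and hmgcs1 (-1.20, SE 1.72) were each smaller than, or close to, their own SE. Only ldlra was positive, at 0.44 with an interval from -0.73 to 1.6. Because both changes are taken against the same control samples, the summed SE used here is too large rather than too small. With the larger of both SEs in its place, dhcr7 passed, at an adjusted p of 0.00693, and no other member did. The share of all genes that pass with this SE is not given here, so this call has no background beside it.

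**Figure D2:**
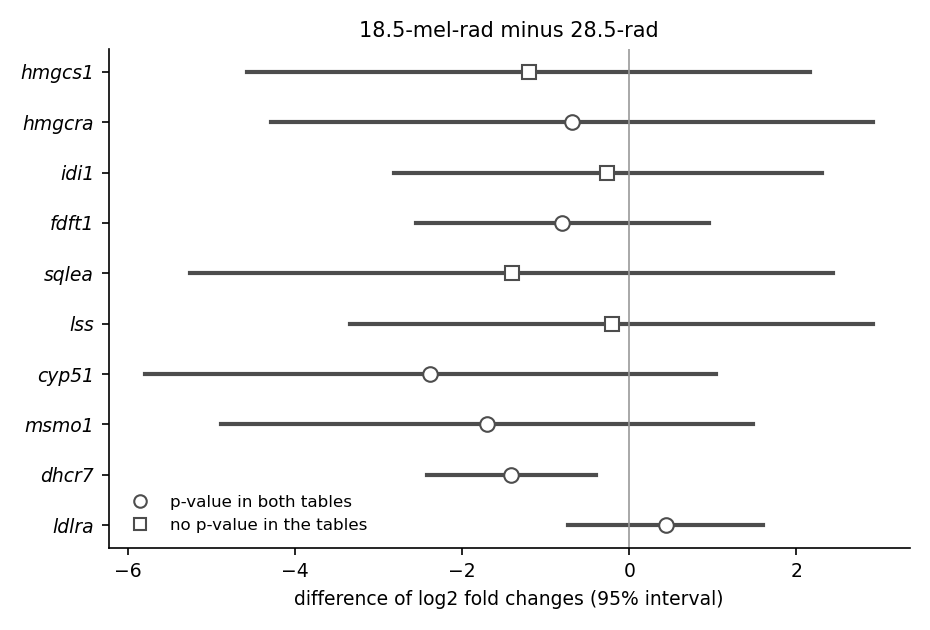
Difference of log2 fold changes, 18.5-mel-rad minus 28.5-rad (x axis), for the 10 genes in pathway order with 95% intervals from the summed standard errors. The interval of dhcr7, from -2.42 to -0.40, is the only one that leaves out 0, and ldlra is the only gene on the positive side.

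In every table the changes of these genes were poorly measured for their abundance. All 10 had an SE above the median SE of its 500 neighbours, the genes of closest mean expression, in each of the 3 tables. The ratio of a gene's SE to that median ran from 1.32 to 4.15 in 18.5-mel, from 1.72 to 6.84 in 18.5-mel-rad and from 1.65 to 6.51 in 28.5-rad. The SE exceeded that of 95% of the neighbours for 4 genes in 18.5-mel, 8 in 18.5-mel-rad and 7 in 28.5-rad. At a mean expression of at least 100, an SE of 1 or more was found for 5 of 8 members against 7.32% of all genes in 18.5-mel, 6 of 9 against 2.5% in 18.5-mel-rad, and 6 of 9 against 3.02% in 28.5-rad. These are descriptions without a test.

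The size of the excess varied within the list. At a mean expression of 306 in the 18.5-mel-rad table, sqlea had an SE of 1.35, and 6 of its 500 neighbours had a larger one. Reductase hmgcra, at a mean of 321, had an SE of 1.26, with 7 neighbours above it. In contrast, dhcr7 had an SE of 0.36 at a mean of 1010, with 72 neighbours above it, and ldlra 0.41 at a mean of 453, with 42 above it. In the 28.5-rad table lss had the fewest neighbours above it, 5 of 500, at an SE of 1.16.

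**Figure D3:**
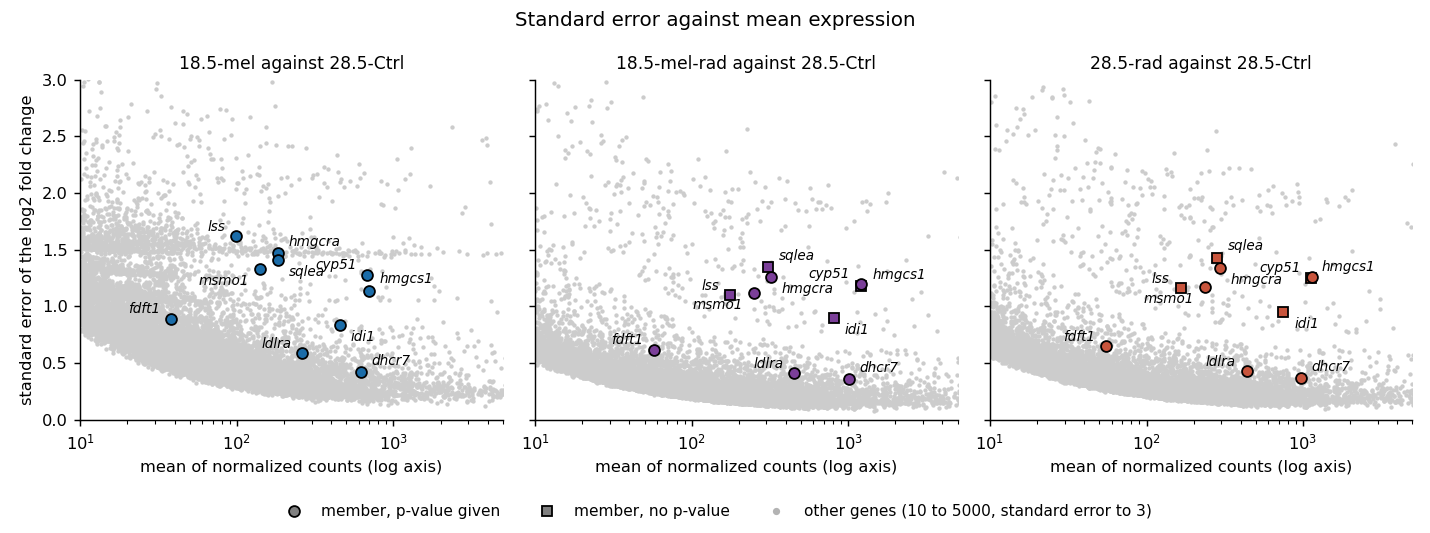
Standard error of the log2 fold change (y axis) against the mean of normalized counts (x axis, log scale) in the tables of 18.5-mel, 18.5-mel-rad and 28.5-rad, with grey points for other genes. All named genes lie above the median standard error of genes of like abundance, and fdft1, ldlra and dhcr7 lie nearer to it than the others. Squares are the 4 members without a p-value.

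A missing p-value beside an estimate is how DESeq2 marks a gene with an outlying count, by Cook's distance. It was rare: 94 genes in 18.5-mel (0.349% of those with an estimate), 60 in 18.5-mel-rad (0.331%) and 48 in 28.5-rad (0.264%). Of the 44 genes without a p-value in both irradiated tables, 7 belong to a list of 24 cholesterol synthesis genes, namely acat2, hmgcs1, idi1, fdps, sqlea, lss and ebp. In 18.5-mel-rad mvda was without one too, and in 18.5-mel no synthesis gene was. By default DESeq2 gives no such mark for counts in groups of 2 samples, the size of 18.5-mel and 28.5-Ctrl by the labels. That 18.5-mel had none among synthesis genes therefore does not show that these groups held no outlying count. Another 7 of the 44 are vitellogenin genes, which encode yolk precursors made in the female liver, and the 18.5-mel table also has 7 vitellogenin genes without a p-value. Of the 94 in 18.5-mel, 11 are ovary markers. The tables do not say in which library the outlying counts were, or whether it was the same one.

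Liver markers had wide errors as well. Over the 16 liver markers listed, the median log2 fold change was -2.49 in 18.5-mel, -2.43 in 18.5-mel-rad and -2.61 in 28.5-rad, negative for all 16 in each table. Their median SE was 2.06 in 18.5-mel, 1.86 in 18.5-mel-rad and 1.89 in 28.5-rad. An SE above that of 95% of neighbours was found for 14 of them in 18.5-mel, 15 in 18.5-mel-rad and 15 in 28.5-rad. DESeq2 called 3 of 16 lowered in 18.5-mel, against 15.8% of all tested genes, and 1 of 15 in 18.5-mel-rad, against 5.68%. In 28.5-rad it called 0 of 15, and 0 had an unadjusted p under 0.05. The liver fatty acid binding protein gene fabp10a had a mean of 1281 in the 18.5-mel table, 1790 in that of 18.5-mel-rad and 2067 in that of 28.5-rad. The summed mean of the list was 93837 in 18.5-mel, 160819 in 18.5-mel-rad and 162549 in 28.5-rad, most of it apobb.1, which enterocytes also express. Enterocyte markers were called in each comparison. In 18.5-mel 9 of 15 tested were lowered and 0 raised (median log2 fold change -0.67), against 15.8% lowered and 21.3% raised of all tested genes. Genes of like abundance were lower there too, with neighbour medians for these 9 between -0.78 (vil1) and -0.70 (mep1a.2). Relative to these medians, slc5a1 lay at -1.81, apoa4b.1 at -1.34, apoa4b.2 at -1.29, chia.1 at -0.81 and mep1a.1 at -0.49. The rest of the 9 lay at -0.40 (mep1a.2), -0.03 (slc15a1b), 0.04 (vil1) and 0.13 (dpp4). In 18.5-mel-rad 1 of 14 was lowered and 2 raised (median -0.27), against 5.68% and 6.06%. In 28.5-rad 0 of 14 were lowered and 6 raised (median 0.65), against 0.599% and 1.34%. Their median SE was 0.31 in 18.5-mel, 0.24 in 18.5-mel-rad and 0.25 in 28.5-rad. Among exocrine pancreas markers it was 0.62 in 18.5-mel, 0.53 in 18.5-mel-rad and 0.55 in 28.5-rad, with at most 1 marker of either list above 95% of its neighbours in any table. The median SE of smooth muscle markers lay between 0.24 and 0.33 and that of erythrocyte markers between 0.88 and 1.71. Over the 3 tables, the summed mean of ovary markers lay between 163 and 171, with figla at 0, and that of testis markers between 21.1 and 88.5, with tssk6 at 0. Of ovary markers with an estimate, 11 of 15 had no p-value in 18.5-mel, 2 of 12 in 18.5-mel-rad and 2 of 12 in 28.5-rad. Their median log2 fold change was 2.15 in 18.5-mel, 2.43 in 18.5-mel-rad and 2.47 in 28.5-rad. Their SE exceeded that of 95% of neighbours for 11 in 18.5-mel, 10 in 18.5-mel-rad and 10 in 28.5-rad. In 18.5-mel 4 of 8 tested testis markers were raised (median log2 fold change over the list 5.11), against 21.3% of all tested genes. In the irradiated tables none could be called. The part of these cell types in the sterol results was not tested.

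Of the list of 24 synthesis genes, 22 were measured, and 13 of these lie beyond the 9 enzymes above. In 18.5-mel, 6 of these 13 were lowered and 1 was raised, with a median log2 fold change of -1.52. Over all tested genes, 15.8% were lowered and 21.3% raised. Among the lowered were hsd17b7, a reductase of sterol intermediates, at -3.67 (SE 1.69, DESeq2 adjusted p = 0.0836), and fdps, which makes farnesyl diphosphate, at -2.17 (SE 0.96, adjusted p = 0.0706). Also lowered was nsdhl, of the sterol steps, at -3.55 (SE 0.97, DESeq2 adjusted p = 0.00162). The raised gene was pmvk, phosphomevalonate kinase, at 4.58 (SE 0.73, adjusted p = 5.34e-09) with a mean expression of 33.3. In 18.5-mel-rad pmvk stood at -0.54 (SE 0.77), hsd17b7 at -0.11 (SE 1.14), fdps at 0.03 (SE 0.97) and nsdhl at 0.08 (SE 0.45). In 28.5-rad pmvk stood at 0.51 (SE 0.81). Fewer of the 13 could be called in the irradiated tables, 9 in 18.5-mel-rad, where 4 had no p-value, and 7 in 28.5-rad, where 3 had none. DESeq2 called 0 of those tested in either table, and 0 of the 13 had an unadjusted p under 0.05 in either. Of all tested genes, 11.7% were called in 18.5-mel-rad and 1.94% in 28.5-rad, so few calls would be looked for among so few genes. In 18.5-mel-rad 9 of the 13 values were positive (median 0.08), and in 28.5-rad 12 were (median 0.51). In 18.5-mel-rad hmgcrb stood at 0.04 (SE 0.16) and in 28.5-rad at -0.04 (SE 0.18), with far narrower errors than hmgcra.

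Regulators of the pathway were lowered in 18.5-mel as well, although srebf2, the gene of SREBP2 itself, was not, at 0.33 (SE 0.49, adjusted p = 0.653). Of 13 SREBP regulators tested in 18.5-mel, 8 were lowered and none rose, with a median of -1.63, where 15.8% of all tested genes were lowered. Both activating and restraining genes were among them. The activators were scap, the SREBP escort, at -1.63 (SE 0.44, adjusted p = 0.00141), and the protease genes mbtps2, at -2.39 (SE 0.52, adjusted p = 3.96e-05), and mbtps1, at -1.23 (SE 0.56, adjusted p = 0.0789). The others included insig2, which retains SCAP, at -4.27 (SE 1.5, adjusted p = 0.0182), and rnf145b, a ubiquitin ligase gene, at -2.94 (SE 0.78, adjusted p = 0.00113). In 18.5-mel-rad 0 of 12 were called by DESeq2, where 11.7% of all tested genes were, and 1 had an unadjusted p under 0.05. The median of the list was 0.05 in that group, which had the same cold and melatonin. Values there were -0.13 for scap (SE 0.18), 0.03 for mbtps2 (SE 0.18) and -0.07 for mbtps1 (SE 0.19). Those of insig2 and rnf145b were -0.09 (SE 0.32) and -0.23 (SE 0.23). The difference between both torpor groups was not tested. In 28.5-rad 1 of 9 tested was called, where 1.94% of all tested genes were. This gene, srebf1, which encodes the SREBP more tied to fatty acid synthesis, rose by 0.61 (SE 0.16, adjusted p = 0.0168), just past the fold threshold of 0.58.

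Among uptake and transport genes, calls were mostly lowered in 18.5-mel and all raised in 18.5-mel-rad, a difference that was not tested. In 18.5-mel, 8 of 20 were lowered and 1 was raised, against 15.8% lowered and 21.3% raised over all tested genes, so that the share called in either direction was near the 37.1% of all genes. The lowered genes with the largest changes were npc1l1, the intestinal cholesterol absorption protein, at -2.67 (SE 0.49, adjusted p = 5.3e-07), scarb2a, a lysosomal membrane protein gene, at -2.38 (SE 0.48, adjusted p = 8.96e-06), and scarb1, the HDL receptor, at -2.28 (SE 0.47, adjusted p = 9.93e-06). No values for npc1l1 in the irradiated tables were used here. In 18.5-mel-rad 3 of 19 rose and none fell, where 6.06% of all tested genes rose. They include mylipb, whose human counterpart MYLIP marks the LDL receptor for degradation, which rose by 1.28 (SE 0.52, adjusted p = 0.0971), and ldlrb, which rose by 1.21 (SE 0.47, adjusted p = 0.0816). In 28.5-rad DESeq2 called 0 of 14 tested, with 5 of the listed genes at an unadjusted p under 0.05, and ldlrb was at 0.53 (SE 0.50). The share of all tested genes called there was 1.94%.

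Genes that store, export or convert cholesterol were also read. In 18.5-mel, 5 of 16 were lowered and 2 raised, a share called that was near the 37.1% of all tested genes. Those with the largest changes were soat1, which esterifies cholesterol for storage, at -5.61 (SE 1.33, adjusted p = 0.000197), cyp27a1.4, a sterol hydroxylase gene of bile acid synthesis, at -4.19 (SE 1.56, adjusted p = 0.0273), and lcat, which esterifies cholesterol on HDL, raised by 4.11 (SE 1.43, adjusted p = 0.0175). In 18.5-mel-rad 3 of 14 tested rose and none fell, where 6.06% of all tested genes rose, and all 3 encode sterol exporters. They were abca1b, by 1.57 (SE 0.41, adjusted p = 0.0031), abcg8, by 1.38 (SE 0.33, adjusted p = 0.00095), and abcg5, by 1.27 (SE 0.39, adjusted p = 0.0162). The other exporter genes of the list stood at -0.13 (abca1a, SE 0.29) and 0.04 (abcg1, SE 0.98) in 18.5-mel-rad. In 18.5-mel, abca1b was also raised, by 1.05 (SE 0.50, adjusted p = 0.0951), while abca1a was lowered, at -2.00 (SE 0.44, adjusted p = 5.52e-05). The values in 28.5-rad were 1.04 (abca1b, SE 0.42), 0.53 (abcg8, SE 0.34) and 0.20 (abcg5, SE 0.42). There DESeq2 called 0 of 10 tested, where 1.94% of all tested genes were called, and 1 listed gene had an unadjusted p under 0.05. None of abca1b, abcg8 and abcg5 was called in the difference between the irradiated groups.

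**Figure D4:**
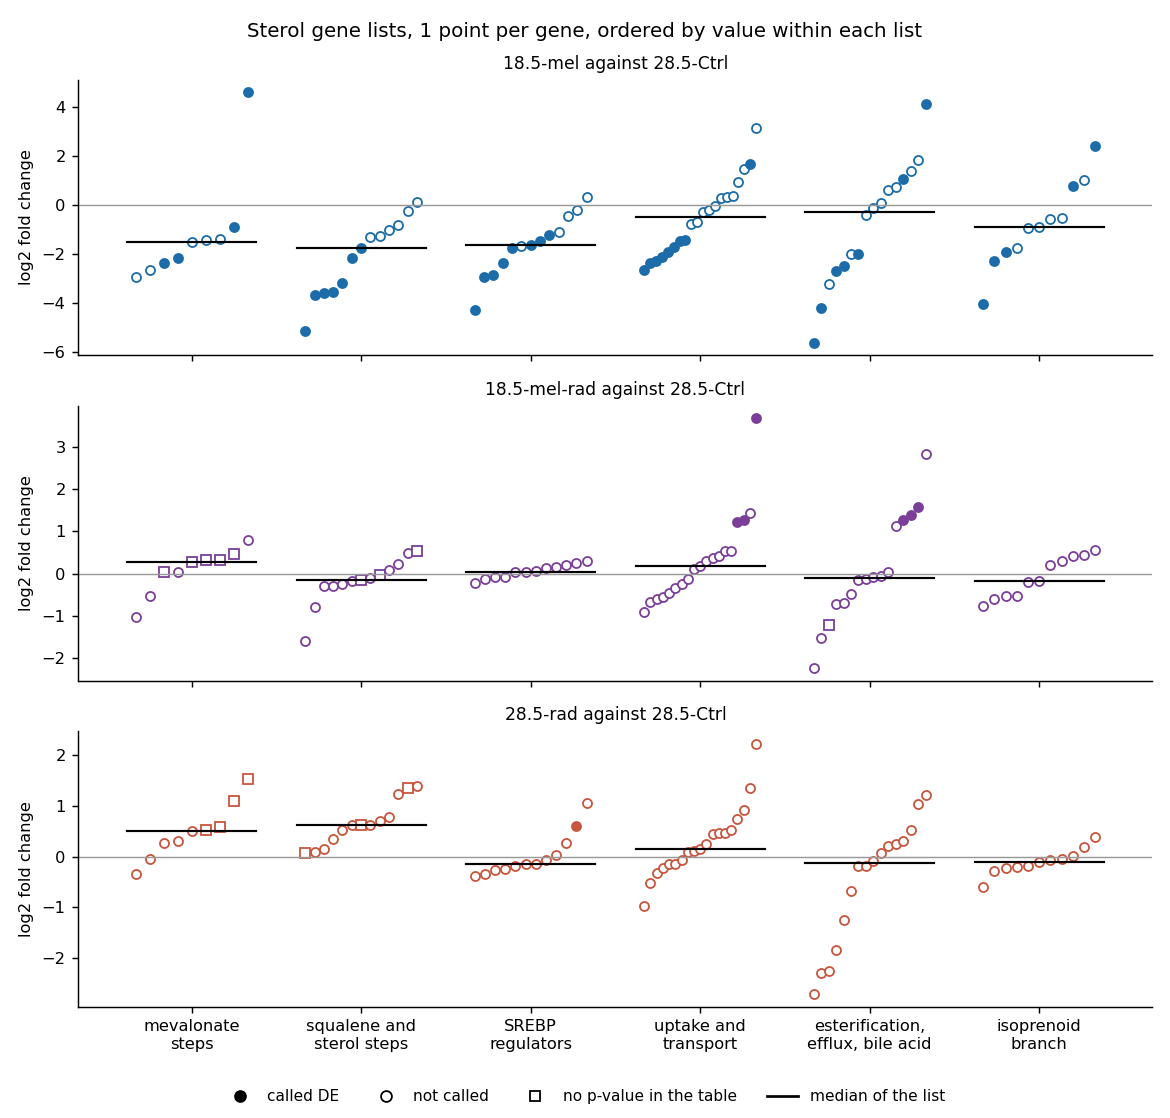
Log2 fold change against 28.5-Ctrl (y axis, scaled for each panel) of every gene in 6 sterol gene lists, for 18.5-mel, 18.5-mel-rad and 28.5-rad from top to bottom, with lines at list medians. Called genes (filled) are mostly below 0 in 18.5-mel, are 6 genes above 0 in 18.5-mel-rad, and are srebf1 alone in 28.5-rad.

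By the RefSeq annotation of another assembly, the span of hmgcra overlaps arsk, that of idi1 overlaps nck1b, and that of dhcr7 overlaps nadsyn1. The spans of hmgcs1, cyp51 and dhcr7 each also overlap 1 gene known only by a locus number. Strand use in the counting is not given in the sources used here, so reads from these pairs may be mixed, and the values of hmgcs1, hmgcra, idi1, cyp51 and dhcr7 are uncertain to that extent.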

How the data were processed

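Reads of GIT RNA (TruSeq libraries, 11 samples in 4 groups by the labels) were trimmed with cutadapt, aligned to GRCz11 with STAR and counted with HTSeq by the authors, who fitted DESeq2; versions, covariates and strand setting are not given in the sources used here. The only depth given was a stated minimum of about 25 M reads per library. The authors deposited, for each comparison, a mean of normalized counts (a signal over all libraries of the fit), the log2 fold change and SE, the Wald score, and p-values with Benjamini-Hochberg adjustment. These columns are results of the authors' own tests and were used as deposited, because the tables hold no values per sample. Genes with reads but a fold change of exactly 0 (2592, 413 and 720 in the 18.5-mel, 18.5-mel-rad and 28.5-rad tables) show that each mean also runs over libraries of neither group, so group levels were not computed. A missing p-value was kept as missing.

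From these columns, intervals, ratios of each SE to its 500 nearest neighbours and the difference between the irradiated groups were computed in Python 3.11.15 with pandas 2.3.3, NumPy 2.4.6, SciPy 1.17.1 and matplotlib 3.10.9. The difference was tested first on simulated estimates, drawn independently and without shared control samples, with differences planted only in genes of small SE. That simulation does not show how the test performs with shared controls or for members with wide errors. Genes named are the 10 members, their listed paralogs and up to 3 called genes per list and comparison with the largest absolute log2 fold change. Values of a few such genes are left out here. Genes without a p-value, overlapping genes, nsdhl, srebf2, scap, mbtps1, mbtps2, abca1a, abcg1, apobb.1 and other markers were named after their values were seen. The members and all lists (mevalonate, sterol, SREBP, uptake, efflux and isoprenoid genes, and cell type markers) were chosen with earlier results of these data known. Of the list symbols, mvd, sqleb, lipa, cyp8b1.1 and 6 markers were not matched. Alternatives were other thresholds, adjustment over all genes with a p-value, a mean expression of at least 10, 1 entry per gene, other centring, and the larger SE; after seeing the data, p-values from the Wald score where missing and a median over members with a p-value were added.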

Additional observations from a re-analysis of the deposited data

Results flagged for a closer look

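By the normal test of the difference across all genes, 2 of 80 genes of the sterol lists were called (2.5%), against 1.31% of all genes. These calls used an adjusted p of at most 0.1 without a fold threshold. The 2 shares were not compared by a test. For erlin1, whose product helps to degrade HMG-CoA reductase in mammals, the log2 fold change was 0.30 in 18.5-mel-rad and -0.24 in 28.5-rad. The difference was 0.54 (SE 0.17, normal test, adjusted p = 0.0837). In 18.5-mel, with the same cold and melatonin, erlin1 was lowered at -1.74 (SE 0.19, DESeq2 adjusted p = 7.76e-19). The gene fntb encodes the beta subunit of the enzyme that attaches farnesyl groups to proteins. Its log2 fold change was -0.54 in 18.5-mel-rad and 0.39 in 28.5-rad, a difference of -0.92 (SE 0.29, normal test, adjusted p = 0.098). In 18.5-mel fntb was lowered at -1.91 (SE 0.50, DESeq2 adjusted p = 0.000855).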

How the results depend on the processing

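No paired analysis was possible because the tables hold no values per sample, and for the same reason no sample could be left out. The 5 genes lowered in 18.5-mel stayed 5 under 7 of 8 alternatives, and at an adjusted p of at most 0.01 the count was 1 (lss). Some of the 7 could hardly change the count. The 5 genes were at -1.45 or lower, so all pass a log2 fold change of at least 1. Taking 1 entry per gene gave the same adjusted p-values as adjustment over all genes with a p-value. The counts of 0 in 18.5-mel-rad and 28.5-rad did not change. The median over the 10 genes lay between -2.08 and -1.39 in 18.5-mel and between 0.62 and 0.67 in 28.5-rad under every summary and centring tried. In 18.5-mel-rad it was -0.16, and -0.54 over the members with a p-value, an alternative chosen after seeing the data. The larger SE raised the count in the difference between irradiated groups to 1 member, dhcr7, with no share of all genes to set beside it. Over the named genes, 184 of 200 values in 18.5-mel, 84 of 96 in 18.5-mel-rad, 46 of 48 in 28.5-rad and 33 of 36 in the difference kept their call. These alternatives leave each fold change as it was, so no direction could turn. Many of the calls also could not change, such as those of uncalled genes at a stricter threshold. Adjusted over all genes with a p-value, hsd17b7 in 18.5-mel (adjusted p = 0.111) and mylipb (0.131) and ldlrb (0.11) in 18.5-mel-rad no longer passed. At an adjusted p of at most 0.05, erlin1 and fntb did not pass either. With 2 control samples and SEs above 1 for most members, changes under about 1.96 SE were not detectable. The adjustment set the limit higher still. In 18.5-mel-rad dhcr7 had a Wald score of -2.18 and was not called (DESeq2 adjusted p = 0.161).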

Other observations

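The isoprenoid branch uses farnesyl diphosphate for products other than sterol. In 18.5-mel, 3 of its 11 genes were lowered and 2 raised, against 15.8% lowered and 21.3% raised over all tested genes. Among them, pdss2, a subunit of the enzyme that builds the coenzyme Q tail, was at -4.02 (SE 1.49, DESeq2 adjusted p = 0.0266), nus1, which serves dolichol synthesis, at -2.28 (SE 0.43, adjusted p = 1.07e-06), and coq2, which joins the tail to its ring, at 2.39 (SE 0.51, adjusted p = 2.59e-05). In 18.5-mel-rad DESeq2 called 0 of 9 tested and in 28.5-rad 0 of 6, with 1 and 0 at an unadjusted p under 0.05. Of all tested genes, 11.7% were called in 18.5-mel-rad and 1.94% in 28.5-rad.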
